A study of Mus musculus with 20 samples.

Results

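The transcription factor p53, encoded by Trp53, and 9 of its known target genes were examined in sorted T cells and T cell lymphomas of the mouse. These 10 genes were chosen by name, as the rows of the expression table whose Ensembl identifier belongs to Trp53, Mdm2, Phlda3, Ccng1, Aen, Sesn2, Trp53inp1, Zmat3, Eda2r or Perp, and 10 of the 39179 rows of the table carried them. RNA-seq was performed on 20 libraries in 5 groups, and the table holds 1 value per gene and group, namely the average of the normalized counts of the libraries of that group. Values of single libraries were not used here, so the averages carry no error, the number of libraries is given for each group only to describe it, and no difference below was tested against the spread between replicates. The depth of each library is unknown.

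All mice had the C57BL/6 background. Control CD4SP cells (5 libraries, mature thymocytes sorted as CD4+TCRb+CD8-) are labelled wild type, and the study names littermate or Id3+/- animals as controls. The libraries labelled Id3-/- (3 libraries) and those of Id2-/-Id3-/- CD4SP cells (3 libraries) came from thymi sorted in the same way. The latter were taken from Id2fl/flId3fl/flIL7RCre mice, in which the Cre recombinase is driven from the Il7r locus in lymphocyte progenitors, and the thymocytes were from 8-wk-old animals. TFH cells (3 libraries), the CD4 helper cells of germinal centers, came from the spleen of wild-type animals given sheep red blood cells as antigen and were sorted as CD4+TCRb+CD44highCXCR5+. Their age and that of the lymphoma-bearing mice are left out, as the sources used here do not tie them to the libraries. The Id2-/-Id3-/- lymphomas (6 libraries) were sorted tumor cells from lymph node (4), thymus (1) and spleen (1), sorted on CD4 in 4 cases and on CD8 in 2. The Cre line behind each lymphoma is not given in the labels, and the study used lines in which Cre is driven by Il7r, Cd4 or the distal Lck promoter.

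Id2 and Id3 are inhibitors that bind E proteins, a family of transcription factors in lymphocytes, and prevent them from binding DNA. Id2 averaged 2293 normalized counts in control CD4SP cells, 6.82 in Id2-/-Id3-/- CD4SP cells and 30.5 in the lymphomas. Id3 averaged 1991 normalized counts in control cells, 879.7 in Id2-/-Id3-/- CD4SP cells and 856.8 in the lymphomas. Its average was 2649.7 in the libraries labelled Id3-/-, above the control average, so the level of Id3 goes against this label. Reads left from a targeted allele are not separated in a value for the whole gene, and the group is named by its label throughout. Xist averaged 19.7 normalized counts in Id2-/-Id3-/- CD4SP cells and between 5060 and 10477 in the other groups, and the part of this difference in the results was not tested. The 8 T cell markers summed to between 42890 and 66450 normalized counts in the 5 groups. Cd4 averaged 15039 in control thymocytes and 4110 in the lymphomas, and Cd8a averaged 1388 in the lymphomas and between 19.2 and 127.7 in the other groups. The 6 B cell markers summed to 534.7 normalized counts in TFH cells and 542.8 in the lymphomas, against 58.7 to 91.7 in the thymic groups, and Cd79b made up 455 of the lymphoma sum. The 6 myeloid markers summed to between 132.4 and 507.8 normalized counts and the 6 stromal and endothelial markers to between 1461 and 3358, both highest in the lymphomas. For the latter this rested on Col1a1, with 1663 in the lymphomas and 377 in Id2-/-Id3-/- CD4SP cells against 24.7 in controls. By contrast, in the lymphomas Pecam1 was at 1683 against 1858 in controls and Cdh5 at 0.697 against 15.8. Col1a2, Col3a1 and Pdgfra were under 10 in every group. In sorted bulk cells a change in the kinds of cells present and a change in RNA per cell cannot be told apart.

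In unstressed cells p53 protein is kept low by Mdm2, an E3 ubiquitin ligase that marks it for degradation. DNA damage, oncogene activity and other stresses release p53 from Mdm2, and the stabilized protein binds DNA and activates genes for cell cycle arrest, cell death, repair and metabolic control, Mdm2 among them, which closes a feedback loop. Because this control acts largely on the protein, the level of Trp53 mRNA is not a measure of p53 activity. In the thymus p53 is best known for restraining thymocytes with unrepaired antigen receptor breaks and for suppressing T cell lymphoma.

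The p53 protein binds as a tetramer to a pair of decameric half-sites, each with a CNNG core. Promoter sequences from RefSeq (GRCm38.p6, 250 bases before to 50 bases after the start of the gene) matched 7 of the 10 genes. They were searched on both strands for the p53 half-site consensus, and an exact half-site was found in 8.36% of 32851 promoters of the genome. A pair of half-sites, each with its CNNG core, with a spacer of at most 13 bases and at most 2 mismatches to the consensus in all, was found in 4.09% of them. The promoters shown are those of the p53 inhibitor Mdm2 and of the 3 target genes other than Perp that differed most between Id2-/-Id3-/- and control CD4SP cells, with the half-sites in capitals. The windows are chr11:40755237-40755536 for Ccng1, chr10:117710709-117711008 for Mdm2, chr1:135765835-135766134 for Phlda3 and chr4:132510407-132510706 for Sesn2, on the strand of the gene, which is the minus strand except for Phlda3.
Ccng1: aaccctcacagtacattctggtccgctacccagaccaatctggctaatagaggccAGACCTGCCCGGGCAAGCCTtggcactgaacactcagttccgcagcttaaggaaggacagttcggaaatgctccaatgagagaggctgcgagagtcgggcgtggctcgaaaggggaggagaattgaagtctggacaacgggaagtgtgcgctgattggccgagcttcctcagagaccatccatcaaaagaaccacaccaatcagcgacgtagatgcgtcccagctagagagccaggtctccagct
Mdm2: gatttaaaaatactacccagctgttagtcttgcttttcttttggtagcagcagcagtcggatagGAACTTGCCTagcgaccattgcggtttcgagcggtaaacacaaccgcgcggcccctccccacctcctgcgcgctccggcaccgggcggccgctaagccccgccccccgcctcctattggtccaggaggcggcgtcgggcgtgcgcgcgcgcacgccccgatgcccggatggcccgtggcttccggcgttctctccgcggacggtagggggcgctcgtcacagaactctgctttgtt
Phlda3: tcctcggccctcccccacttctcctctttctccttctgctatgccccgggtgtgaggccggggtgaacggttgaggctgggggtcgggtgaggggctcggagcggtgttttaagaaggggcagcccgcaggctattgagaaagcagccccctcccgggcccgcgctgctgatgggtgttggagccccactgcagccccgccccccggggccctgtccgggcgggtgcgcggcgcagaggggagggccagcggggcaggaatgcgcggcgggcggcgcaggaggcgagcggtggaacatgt
Sesn2: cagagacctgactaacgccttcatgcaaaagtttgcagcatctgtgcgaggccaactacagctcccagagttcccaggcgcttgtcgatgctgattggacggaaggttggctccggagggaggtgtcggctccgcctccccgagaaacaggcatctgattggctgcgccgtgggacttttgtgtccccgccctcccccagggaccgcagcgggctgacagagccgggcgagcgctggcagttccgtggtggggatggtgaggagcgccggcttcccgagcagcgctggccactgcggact

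In the Ccng1 promoter the capitals mark a pair of half-sites without spacer, at chr11:40755462-40755481, with 1 mismatch to the consensus. The pair begins 195 bases before the RefSeq start used for the window. Distances here are all from these RefSeq starts, which can differ from the ends of the gene positions given below, as for Ccng1. The Mdm2 promoter holds a single half-site at chr10:117710935-117710944, 186 bases before the start. No half-site was found in the Phlda3 and Sesn2 windows. Of the promoters not shown, that of Trp53 held a single half-site, GGACTTGCCC, at chr11:69580284-69580293, 75 bases before the start. Both annotated promoters of Aen held GGGCTTGTCC at chr7:78895937-78895946, and the promoter of Eda2r held none. A match describes the letters of these windows and is not a measured binding site, and the windows leave out introns. Trp53inp1, Zmat3 and Perp were not searched.

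Across the 5 groups the 10 genes differed in how far they moved from the control level. Mdm2 was almost level, Phlda3, Ccng1, Sesn2 and Perp were more than 2-fold above the control level in Id2-/-Id3-/- CD4SP cells, and Trp53, Aen, Trp53inp1 and Zmat3 stayed within 2-fold of it, while Eda2r was near 0. The comparisons below use the log2 ratio of the group averages with 1 normalized count added to each, and a gene is said to be past the fold where this ratio reached 2 in either direction. For shares over all genes, the 15536 rows in which the average of any group was 10 or more were kept, and 9 of the 10 genes were among them. Perp passed this filter only through groups in which it was high, so nothing is read from its part in the counts below. Eda2r was not kept and could not be called, but it is included in the 10 of these counts and in the medians of the 10 genes. Every comparison but that of lymphomas with Id2-/-Id3-/- CD4SP cells uses the same control average, so the comparisons are not independent.

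**Figure D1:**
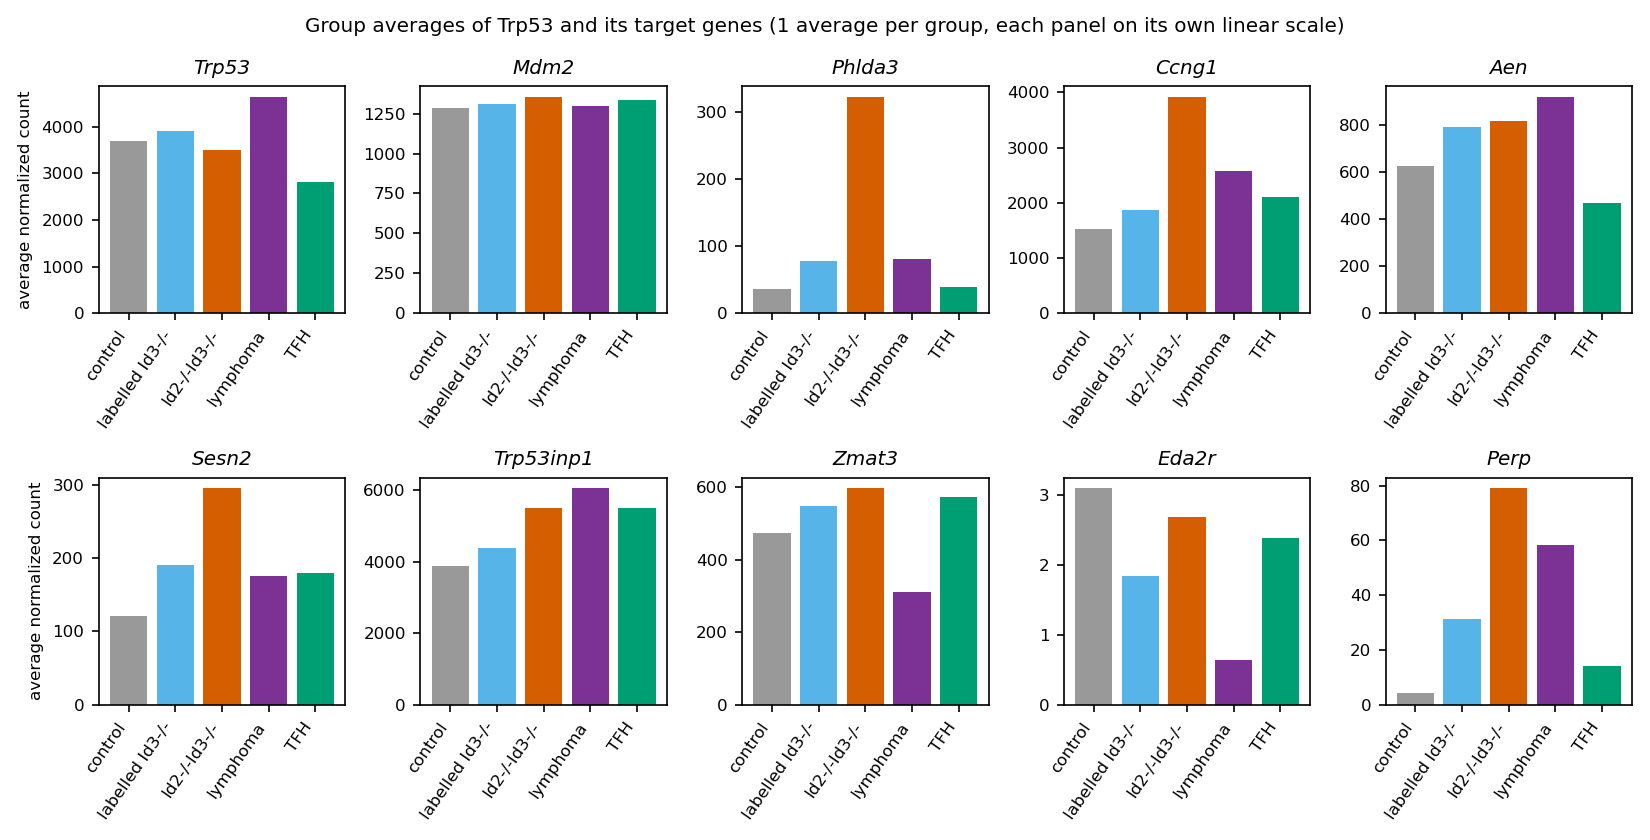
Average normalized count (vertical axis, linear from 0 and scaled for each gene) of Trp53 and its 9 target genes in the 5 groups. Bars are averages over the libraries of a group, with no error available. Phlda3, Ccng1, Sesn2 and Perp are highest in Id2-/-Id3-/- CD4SP cells, whereas the bars of Mdm2 are almost level, between 1283 and 1355.

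Trp53 lies on chr11:69580359-69591873, plus strand. It averaged 3693 normalized counts in control CD4SP cells, 3911 in the libraries labelled Id3-/-, 3497 in Id2-/-Id3-/- CD4SP cells, 4642 in the lymphomas and 2819 in TFH cells. The lymphoma average was the highest and the TFH average the lowest, 1.65 times apart. Between Id2-/-Id3-/- and control CD4SP cells the log2 ratio was -0.08, that of lymphomas to control cells 0.33 and that of TFH to control cells -0.39. All 5 averages were thus within 2-fold of each other, and Trp53 transcripts were present in the lymphoma group at a level above the control. An average over 6 tumors does not show whether a single tumor lacks Trp53 transcripts, and sequence changes in Trp53 were not analysed here.

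Mdm2 lies on chr10:117688875-117710758, minus strand. It averaged 1283 normalized counts in control CD4SP cells, 1312 in the libraries labelled Id3-/-, 1355 in Id2-/-Id3-/- CD4SP cells, 1297 in the lymphomas and 1335 in TFH cells. The highest average was 1.06 times the lowest, the smallest span of the 10 genes. Between Id2-/-Id3-/- and control CD4SP cells its log2 ratio was 0.08, and -0.01 once all groups were scaled to one total. For lymphomas against control cells it was 0.02, and -0.19 on that scale, so neither direction holds under another scaling. Mdm2, itself a p53 target, therefore did not share the higher averages of Phlda3, Ccng1, Sesn2 and Perp in Id2-/-Id3-/- CD4SP cells.

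Phlda3 lies on chr1:135766119-135769136, plus strand, and encodes a pleckstrin homology domain protein that competes with the kinase Akt for membrane lipids. It averaged 36.9 normalized counts in control CD4SP cells, 78.6 in the libraries labelled Id3-/-, 323 in Id2-/-Id3-/- CD4SP cells, 81.0 in the lymphomas and 38.8 in TFH cells. The Id2-/-Id3-/- CD4SP group stood far above the other groups, and TFH cells were at the control level. The log2 ratio of Id2-/-Id3-/- to control CD4SP cells was 3.10, and 2.51% of the kept genes had a ratio at least as high. The lymphomas were past the fold on both sides, with a log2 ratio of 1.11 to control cells and of -1.98 to Id2-/-Id3-/- CD4SP cells. With the averages of all groups scaled to one total, the lymphoma to control ratio of Phlda3 was no longer past 2-fold.

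Ccng1 lies on chr11:40748552-40755311, minus strand, and encodes cyclin G1, which recruits a phosphatase to Mdm2. Its averages were 1534 normalized counts in control CD4SP cells, 1877 in the libraries labelled Id3-/-, 3921 in Id2-/-Id3-/- CD4SP cells, 2585 in the lymphomas and 2109 in TFH cells. Control cells were lowest and Id2-/-Id3-/- CD4SP cells highest, with the lymphomas between them. Its log2 ratio of Id2-/-Id3-/- to control CD4SP cells was 1.35, and 9.84% of the kept genes had a ratio at least as high. The log2 ratio of lymphomas was 0.75 to control cells and -0.60 to Id2-/-Id3-/- CD4SP cells, both within 2-fold.

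Sesn2 lies on chr4:132492032-132510501, minus strand, and encodes Sestrin 2, a stress protein that restrains mTORC1 signaling. Sesn2 averaged 120.4 normalized counts in control CD4SP cells, 190.2 in the libraries labelled Id3-/-, 295 in Id2-/-Id3-/- CD4SP cells, 176 in the lymphomas and 179.6 in TFH cells. The lymphomas, TFH cells and the libraries labelled Id3-/- lay close together, below Id2-/-Id3-/- CD4SP cells but above control cells. For Id2-/-Id3-/- against control CD4SP cells the log2 ratio was 1.29. That of lymphomas was 0.54 to control cells and -0.75 to Id2-/-Id3-/- CD4SP cells. An annotated gene on the same strand, Gm12981, overlaps Sesn2, so its reads may be shared.

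Perp lies on chr10:18845020-18857073, plus strand, and encodes a membrane protein of desmosomes that was also described as an effector of p53-dependent death. Perp averaged 4.26 normalized counts in control CD4SP cells, 31.1 in the libraries labelled Id3-/-, 79.0 in Id2-/-Id3-/- CD4SP cells, 58.2 in the lymphomas and 14.1 in TFH cells. The control average was the lowest of the 5 and was under 10. The log2 ratio was 3.93 for Id2-/-Id3-/- and 2.61 for the libraries labelled Id3-/-, both to control CD4SP cells. For lymphomas it was 3.49 to control cells and -0.43 to Id2-/-Id3-/- CD4SP cells, so that Perp, unlike Phlda3, was within 2-fold between the lymphomas and Id2-/-Id3-/- CD4SP cells. The ratios of Perp depend on the count added, and with 10 normalized counts added the log2 ratio of Id2-/-Id3-/- to control CD4SP cells was 2.64 and that of TFH to control cells 0.75, within 2-fold. Epithelial cells are rich in Perp. The 7 epithelial markers summed to 107.7 normalized counts in control cells, 319.8 in the libraries labelled Id3-/-, 680.4 in Id2-/-Id3-/- CD4SP cells, 4215 in the lymphomas and 85.0 in TFH cells. Of these markers Epcam averaged 593 normalized counts in Id2-/-Id3-/- CD4SP cells and 3797 in the lymphomas, and Cdh1 70.3 and 410, whereas the keratins Krt5, Krt8, Krt14 and Krt18 averaged at most 6.14 in any group. The part of other cells in the level of Perp was not tested.

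Aen lies on chr7:78895854-78911209, plus strand, and encodes a nuclease that degrades DNA and RNA in dying cells. Aen averaged 626 normalized counts in control CD4SP cells, 789.8 in the libraries labelled Id3-/-, 813 in Id2-/-Id3-/- CD4SP cells, 918 in the lymphomas and 469 in TFH cells. The lymphoma average was 1.95 times the TFH average, with the thymic groups between them. Against control cells the log2 ratio was 0.38 in Id2-/-Id3-/- CD4SP cells and 0.55 in the lymphomas.

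Trp53inp1 lies on chr4:11156431-11174379, plus strand, and encodes a nuclear protein that promotes p53 phosphorylation and autophagy. Trp53inp1 averaged 3892 normalized counts in control CD4SP cells, 4376 in the libraries labelled Id3-/-, 5507 in Id2-/-Id3-/- CD4SP cells, 6055 in the lymphomas and 5518 in TFH cells. The averages of TFH cells and of Id2-/-Id3-/- CD4SP cells were nearly equal, and the lymphoma average was 1.56 times that of control cells. The log2 ratio of Id2-/-Id3-/- to control CD4SP cells was 0.50, the nearest to the 2-fold limit from below, and Sesn2 with 1.29 was the nearest from above.

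Zmat3 lies on chr3:32334792-32366014, minus strand, and encodes a zinc finger protein that binds RNA. Zmat3 averaged 472 normalized counts in control CD4SP cells, 548 in the libraries labelled Id3-/-, 596 in Id2-/-Id3-/- CD4SP cells, 311 in the lymphomas and 572 in TFH cells. Here the lymphomas were the lowest group, with a log2 ratio of -0.60 to control cells and of -0.94 to Id2-/-Id3-/- CD4SP cells, both within 2-fold. With all groups scaled to one total, Zmat3 was past 2-fold in the latter comparison. Eda2r, a receptor for the ligand ectodysplasin A2, lies on chrX:97333840-97377216, minus strand. Eda2r averaged 3.10 normalized counts in control CD4SP cells, 1.85 in the libraries labelled Id3-/-, 2.69 in Id2-/-Id3-/- CD4SP cells, 0.635 in the lymphomas and 2.39 in TFH cells. It was below 10 normalized counts in every group, and no ratio is given.

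Per kilobase of exon, the order of the levels in control CD4SP cells was Trp53 with 1977 normalized counts, Trp53inp1 with 720.2, Ccng1 with 436.8, Mdm2 with 407.9, Aen with 121.6, Zmat3 with 60.55, Sesn2 with 34.7, Phlda3 with 25.7, Perp with 2.18 and Eda2r with 0.646. In Id2-/-Id3-/- CD4SP cells the per-kilobase level of Ccng1 was 1117 normalized counts, next after Trp53 with 1872 and above Trp53inp1 with 1019. Phlda3 had 225.2 normalized counts per kilobase there, above Aen with 158.2, whereas it stood below Aen, Zmat3 and Sesn2 in control cells. Which neighbors in these orders differ beyond their spread could not be told, since the averages carry no error.

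The comparison of Id2-/-Id3-/- with control CD4SP cells asks what differed in thymocytes of 8-wk-old animals in which both inhibitor genes were targeted. Phlda3, Ccng1, Sesn2 and Perp were past the fold and higher, 4 of the 10 genes, beside 14.1% of the kept genes, and 0 were past the fold and lower, beside 10.1%. The median log2 ratio of the 10 genes was 0.44, and that of the kept genes was 0.02. Id2-/-Id3-/- CD4SP cells had the highest of the 5 averages for 6 of the 10 genes (Mdm2, Phlda3, Ccng1, Sesn2, Zmat3 and Perp), beside 19.2% of the kept genes. Mdm2 was only 1.06 times its lowest group and below its control average once totals were equal. With equal totals Zmat3 was higher in TFH cells, with log2 ratios to control cells of 0.28 there and 0.25 in Id2-/-Id3-/- CD4SP cells. The libraries labelled Id3-/- were past the fold and higher for Phlda3, with a log2 ratio of 1.07, and for Perp. These 2 of the 10 genes stand beside 5.57% of the kept genes that were higher and 4.43% that were lower, and 0 of the 10 genes were lower. The other log2 ratios of these libraries to control cells were 0.66 for Sesn2, 0.34 for Aen, 0.29 for Ccng1, 0.22 for Zmat3, 0.17 for Trp53inp1, 0.08 for Trp53 and 0.03 for Mdm2.

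**Figure D2:**
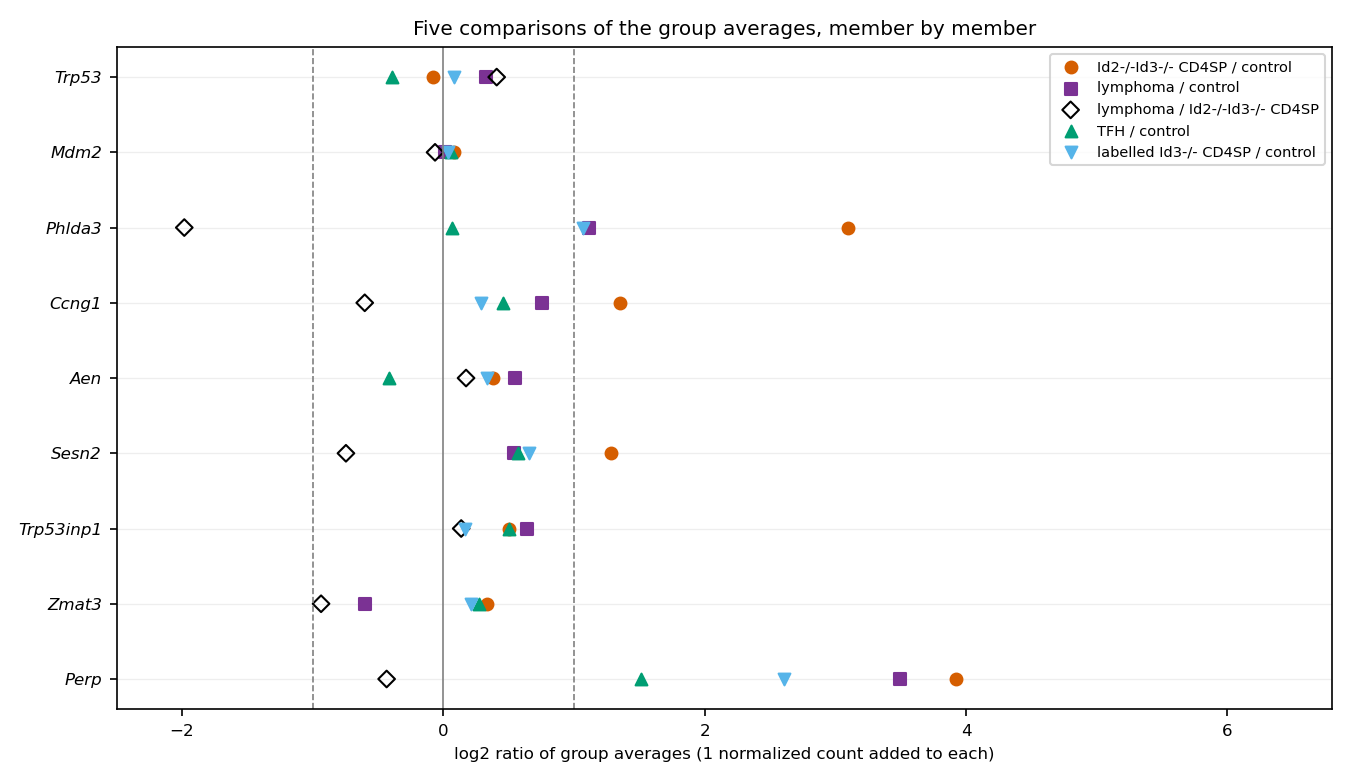
Log2 ratio of group averages, with 1 normalized count added to each (horizontal axis), for Trp53 and the 8 target genes with an average of 10 or more in any group. Each symbol is 1 comparison, and the dashed lines mark 2-fold. Phlda3 and Perp reach 3.10 and 3.93 in Id2-/-Id3-/- against control CD4SP cells, and in lymphomas against Id2-/-Id3-/- CD4SP cells only Phlda3, at -1.98, is past 2-fold.

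The comparison of the lymphomas with control CD4SP cells and with Id2-/-Id3-/- CD4SP cells asks how the tumors stood to normal thymocytes and to thymocytes also labelled Id2-/-Id3-/-. Relative to control cells, Phlda3 and Perp were past the fold and higher, 2 of the 10 genes beside 18.2% of the kept genes, and 0 of the 10 genes were lower beside 17.2%. The median log2 ratio of the 10 genes was 0.55. Against Id2-/-Id3-/- CD4SP cells, 0 of the 10 genes were past the fold and higher beside 11.1% of the kept genes, and Phlda3 alone was lower beside 14.4%, Eda2r being left out as too low. The median log2 ratio of the 10 genes, with Eda2r included, was -0.52 there, against 0.03 for the kept genes. Lower averages in the lymphomas were found for Phlda3, Zmat3, Sesn2, Ccng1, Perp and Mdm2, and for Eda2r, which was under 10 in every group. Trp53, Aen and Trp53inp1 had higher averages in the lymphomas than in Id2-/-Id3-/- CD4SP cells, with log2 ratios of 0.41, 0.17 and 0.14. The lymphomas came from other organs in part and were sorted on CD4 or CD8, and their Cre lines and ages are not tied to the libraries. Xist averaged 10477 normalized counts in them and 19.7 in Id2-/-Id3-/- CD4SP cells. Tissue, sort, Cre line, age, the difference in Xist and tumor state therefore cannot be told apart.

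TFH cells served as the normal cell type whose markers Id2-/-Id3-/- CD4SP cells share in part. The 5 TFH markers Cxcr5, Pdcd1, Icos, Bcl6 and Il21 summed to 3275 normalized counts in control CD4SP cells, 12650 in Id2-/-Id3-/- CD4SP cells and 23470 in TFH cells. Perp was past the fold and higher in TFH than in control cells, 1 of the 10 genes beside 11.8% of the kept genes, and 0 were lower beside 9.8%. The median log2 ratio of the 10 genes was 0.17. Phlda3, with a log2 ratio of 0.07 in TFH cells and 3.10 in Id2-/-Id3-/- CD4SP cells, showed the widest gap of the 10 genes between these 2 comparisons with the same controls. Ccng1 had log2 ratios of 0.46 and 1.35 in the same order, and Sesn2 of 0.57 and 1.29.

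**Figure D3:**
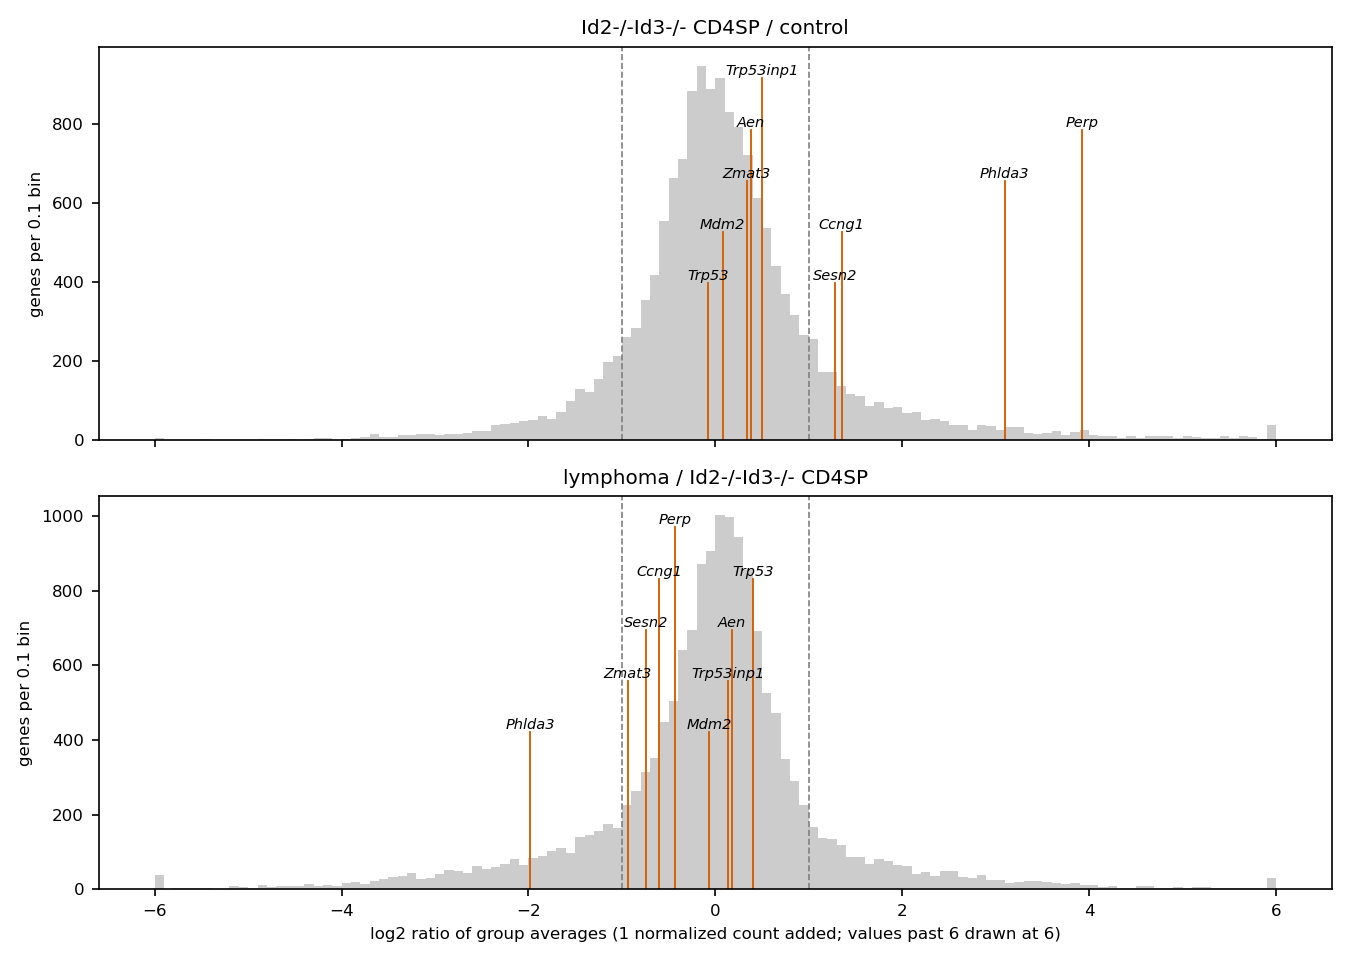
Distribution of the log2 ratio over the 15536 kept genes (grey, number of genes per bin of 0.1 on the vertical axis) in Id2-/-Id3-/- against control CD4SP cells and in lymphomas against Id2-/-Id3-/- CD4SP cells, with Trp53 and 8 target genes as labelled lines of arbitrary height. Dashed lines mark 2-fold. In the upper panel 4 of the lines lie past 2-fold on the higher side, where 14.1% of the kept genes lie, and in the lower panel the line of Phlda3 lies past it on the lower side.

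The wider pathway was followed in 57 other genes, of which 54 were kept, in lists by role. In Id2-/-Id3-/- against control CD4SP cells 12 of the 54 were past the fold and higher, beside 14.1% of all kept genes, and 4 lower, beside 10.1%, with a median log2 ratio of 0.14. The same shares stand beside the counts by role that follow. Of the 12, Cdkn2a, Cdkn1a, Rprm and Dcxr averaged under 10 in control cells and passed the filter only through groups in which they were higher. Rprm passed through Id2-/-Id3-/- CD4SP cells alone, so that it had to differ. Nothing is read from the part of any of these genes in the counts. Upstream regulators made up 16 of them, with 2 higher (Cdkn2a and Chek1), 2 lower (Crebbp and Hipk2) and 12 within 2-fold. Cdkn2a, whose locus encodes p16Ink4a and the Mdm2 inhibitor p19Arf, averaged 2.57 normalized counts in control CD4SP cells, 17.3 in the libraries labelled Id3-/-, 192 in Id2-/-Id3-/- CD4SP cells, 6.01 in the lymphomas and 7.10 in TFH cells. Id2-/-Id3-/- CD4SP cells were highest, with a log2 ratio of 5.76 to control cells, and the libraries labelled Id3-/- had a log2 ratio of 2.36. The lymphomas had a log2 ratio of -4.78 to Id2-/-Id3-/- CD4SP cells. Cdkn2a reached 10 normalized counts only in Id2-/-Id3-/- CD4SP cells and the libraries labelled Id3-/-, so nothing is read from its lower lymphoma average. The values of Cdkn2a do not separate its p16Ink4a and p19Arf transcripts. From reads along the locus, the study reported that p19Arf, and not p16Ink4a, was raised in Id2-/-Id3-/- CD4SP cells. It reported almost no p19Arf transcript in the lymphomas. Hipk2, a kinase that phosphorylates p53, averaged 547.8 normalized counts in control cells, 213 in Id2-/-Id3-/- CD4SP cells and 189.8 in the lymphomas. Atr, a kinase that responds to stalled replication, had averages within 2-fold in the 5 groups, with 404 normalized counts in control cells, 314 in Id2-/-Id3-/- CD4SP cells and 484 in the lymphomas.

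Of the 10 target genes for cell cycle arrest, 5 were past the fold and higher in Id2-/-Id3-/- CD4SP cells than in controls (Plk2, Gtse1, Cdkn1a, Rprm and Plk3), 1 was lower (Sfn) and 4 were within 2-fold. Cdkn1a, which encodes the cyclin-dependent kinase inhibitor p21, averaged 8.66 normalized counts in control CD4SP cells, 9.41 in the libraries labelled Id3-/-, 33.1 in Id2-/-Id3-/- CD4SP cells, 78.0 in the lymphomas and 55.6 in TFH cells. Unlike Phlda3 and Ccng1, Cdkn1a was higher in the lymphomas than in Id2-/-Id3-/- CD4SP cells, with a log2 ratio of 1.21. Plk2, a polo-like kinase, averaged 30.7 normalized counts in control cells, 577 in Id2-/-Id3-/- CD4SP cells, 2452 in the lymphomas and 100.6 in TFH cells. Rprm, which encodes the arrest protein Reprimo, averaged 0.948 normalized counts in control cells, 91.8 in Id2-/-Id3-/- CD4SP cells, 8.50 in the lymphomas and 2.37 in TFH cells. The log2 ratio of lymphomas to Id2-/-Id3-/- CD4SP cells was 2.09 for Plk2 and -3.29 for Rprm. Rprm reached 10 normalized counts in Id2-/-Id3-/- CD4SP cells alone, so nothing is read from its lower lymphoma average. The 12 proliferation genes summed to 10480 normalized counts in control cells, 12600 in the libraries labelled Id3-/-, 16520 in Id2-/-Id3-/- CD4SP cells, 21620 in the lymphomas and 10920 in TFH cells. Of these 12 genes, 2 were past the fold and higher in Id2-/-Id3-/- CD4SP cells than in controls, beside 14.1% of the kept genes. In the lymphomas 9 were past the fold and higher than in controls, beside 18.2%. The part of proliferation in the levels of the p53 targets was not tested.

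Of the 11 target genes for cell death, 4 were past the fold and higher in Id2-/-Id3-/- CD4SP cells than in controls (Dram1, Pmaip1, Bbc3 and Ei24), 0 were lower and 7 were within 2-fold. Pmaip1, which encodes the BH3-only protein Noxa, averaged 14.5 normalized counts in control CD4SP cells, 114.9 in the libraries labelled Id3-/-, 695 in Id2-/-Id3-/- CD4SP cells, 886 in the lymphomas and 166 in TFH cells. Control cells were the lowest group for Pmaip1 and the lymphomas the highest. Bbc3, which encodes the BH3-only protein Puma, averaged 384 normalized counts in control cells, 695 in the libraries labelled Id3-/-, 1041 in Id2-/-Id3-/- CD4SP cells, 621 in the lymphomas and 234 in TFH cells. Ei24, an endoplasmic reticulum protein, averaged 433 normalized counts in control cells, 1196 in Id2-/-Id3-/- CD4SP cells, 533 in the lymphomas and 1052 in TFH cells. As for Phlda3, the lymphomas lay below Id2-/-Id3-/- CD4SP cells in Bbc3 and Ei24, with log2 ratios of -0.75 and -1.17.

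The counts of the metabolic and repair targets stand beside the same shares of all kept genes, 14.1% higher and 10.1% lower. Of the 9 metabolic and redox targets kept, 1 was higher (Dcxr), 1 lower (Sesn1) and 7 within 2-fold in Id2-/-Id3-/- against control CD4SP cells. Sesn1, the relative of Sesn2, averaged 548 normalized counts in Id2-/-Id3-/- CD4SP cells and 778 in the lymphomas, against 1153 in controls, so that the related genes Sesn1 and Sesn2 were past the fold in opposite directions. Sco2, an assembly factor of cytochrome oxidase, averaged 141.5 normalized counts in control cells, 279.9 in Id2-/-Id3-/- CD4SP cells, 268 in the lymphomas and 66.9 in TFH cells. Gpx1, a glutathione peroxidase, averaged 2222 in control cells, 2911 in Id2-/-Id3-/- CD4SP cells and 3668 in the lymphomas. All 8 DNA repair targets were within 2-fold. The extremes of this list were Ercc5, an excision repair nuclease, with 287 normalized counts in Id2-/-Id3-/- CD4SP cells and 343 in the lymphomas against 552.9 in controls, and Rps27l, a ribosomal protein, with 905 and 745 against 474.

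In the other comparisons of these 54 genes, 8 were past the fold and higher in lymphomas against control cells, beside 18.2% of the kept genes, and 5 lower, beside 17.2%. In lymphomas against Id2-/-Id3-/- CD4SP cells 2 were higher, beside 11.1%, and 5 lower, beside 14.4%. As shares of 54, these 4 counts all lie below the shares over all kept genes. In TFH against control cells 10 were higher, beside 11.8%, and 1 lower, beside 9.8%. For the libraries labelled Id3-/- 5 were higher, beside 5.57%, and 0 lower, beside 4.43%. Each of these comparisons counts some of Cdkn2a, Cdkn1a, Rprm and Dcxr, which averaged under 10 in control cells. Nothing is read from their part in these counts either. The medians of these log2 ratios were -0.01, -0.08, 0.00 and 0.10.

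**Figure D4:**
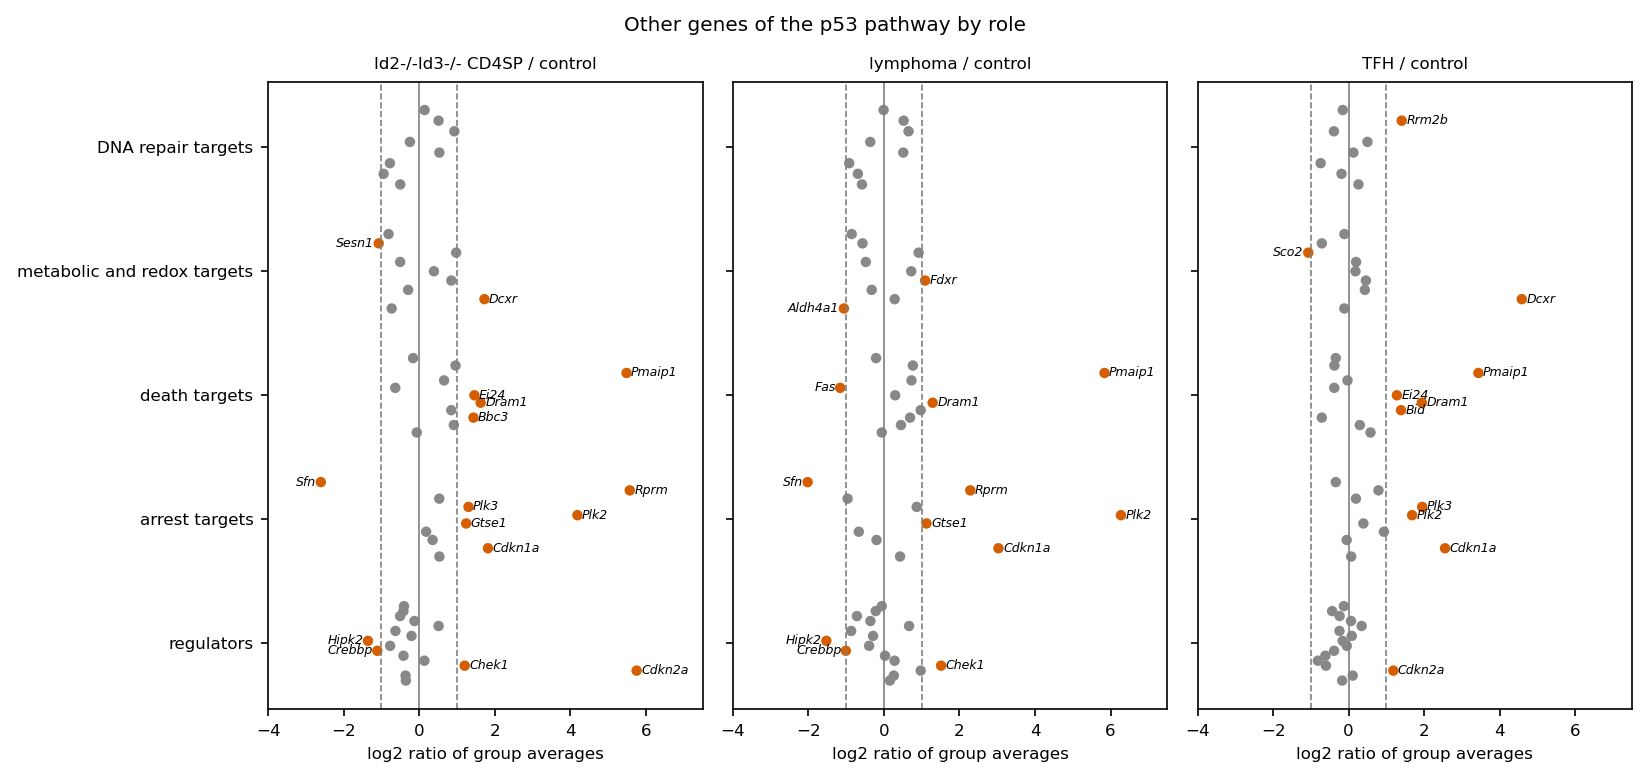
Log2 ratio of group averages, with 1 normalized count added to each (horizontal axis), of the 54 other genes of the p53 pathway that were kept, by role (vertical axis), in 3 comparisons with control CD4SP cells. Each point is 1 gene, colored and named where it was past 2-fold (dashed lines). In Id2-/-Id3-/- CD4SP cells 12 points are named on the higher side, beside 14.1% of all kept genes, and no repair target is named. Of the 12, Cdkn2a, Cdkn1a, Rprm and Dcxr averaged under 10 in control cells, and nothing is read from their part.

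The genes most alike in pattern were sought among the kept rows, by the root mean square difference of log2 averages centered over the 5 groups. Nearest to Trp53 were Wdr77, Ubap2 and Lyrm7, with differences of 0.03, 0.04 and 0.04 on the log2 scale, beside a range of Trp53 of 0.72. Nearest to Phlda3, whose range was 3.10, were Cfap46, Slc9c1 and Syt7, with differences of 0.17, 0.23 and 0.25. These 3 genes reached 10 normalized counts in Id2-/-Id3-/- CD4SP cells alone, so the filter itself fixed the group in which they are high. Cfap46 averaged 43.9 normalized counts in Id2-/-Id3-/- CD4SP cells, against 3.80 in controls. Nearest to Perp, whose range was 3.93, were H2-DMa, Ptpn3 and Tbkbp1, with differences of 0.35, 0.36 and 0.36. H2-DMa, a chaperone of peptide loading on MHC class II, averaged 303 normalized counts in control cells, 2217 in the libraries labelled Id3-/-, 3412 in Id2-/-Id3-/- CD4SP cells, 2860 in the lymphomas and 515 in TFH cells. With 5 averages per gene, such likeness describes these groups only.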

How the data were processed

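RNA-seq was performed by the authors on strand-specific libraries. The authors used OSA (Array Studio) to align reads to mm10, then RSEM to quantify and DESeq to normalize them. Tool versions were not given in the sources used here, nor was the use of strand in counting. The deposited table gives the authors' signal for each gene and group, the average of the normalized counts of its libraries, with 0 columns of values per sample. A further 12 columns hold the authors' own comparisons (fold, p-value and false discovery rate) and were not used. No test across libraries, interval or limit of detection could therefore be computed. Genes were kept where any group average was 10 or more. Log2 ratios have 1 normalized count added, and 2-fold marks a gene as past the fold. Groups were taken from the sample labels. The 10 genes, the pathway lists and the markers were chosen with earlier results of these data known. All 10 are described. Of the lists, Cdkn2a, Cdkn1a and, in each list, the 2 genes with the largest ratio in Id2-/-Id3-/- against control CD4SP cells and the 2 in lymphomas against Id2-/-Id3-/- CD4SP cells were described, where the higher of the 2 averages reached 50. Other pathway genes were named after their values were seen, as those past the fold. Gene positions are from GENCODE on GRCm38, the assembly named mm10. The ratio and the 2-fold call were tested on simulated data, for genes with 50 or more normalized counts in the group compared against. The filter on low values was not tested in this way. Python 3.11.15, numpy 2.4.6, pandas 2.3.3 and matplotlib 3.10.9 were used. The alternatives were no or 10 normalized counts added, equal totals, the median log2 ratio set to 0, no filter on low values or a filter at 50, and limits of 1.5-fold and 3-fold.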

Additional observations from a re-analysis of the deposited data

How the results depend on the processing

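With no values per library, leaving out each replicate was not run. No paired analysis was possible because the columns carry no replicate. A value was taken as kept where it moved by less than 1.5-fold, and a count where it moved by at most 1.5-fold. The medians of the 10 genes were kept under all 20 alternatives, and no log2 ratio past 2-fold changed sign. Mdm2, near 0, changed sign against control cells under scaling in 4 cases, to -0.01 for Id2-/-Id3-/- CD4SP cells, -0.02 for the libraries labelled Id3-/- and -0.19 for lymphomas with equal totals, and to -0.0047 for lymphomas with the median of all genes at 0. Of 200 log2 ratios of single genes 8 moved, all of them of Perp, with 10 normalized counts added, or of Eda2r. For Perp they became 2.64 in Id2-/-Id3-/- CD4SP cells, 2.26 in lymphomas, 1.53 in the libraries labelled Id3-/- and 0.75 in TFH cells, all against control cells. The number of the 10 genes past the fold in either direction depended on the limit. At 3-fold it was 2 rather than 4 in Id2-/-Id3-/- CD4SP cells against control, 1 rather than 2 in lymphomas against control, likewise for the libraries labelled Id3-/-, and 0 rather than 1 in TFH cells. Beside these counts stood 12.3%, 21.1%, 4.5% and 12.1% of the kept genes, in the same order. At 1.5-fold the number was 3 rather than 2 for the libraries labelled Id3-/-, beside 20.3% of the kept genes. It was 5 in lymphomas against control, beside 54.7%, and 4 rather than 1 in lymphomas against Id2-/-Id3-/- CD4SP cells, beside 42.4%. As shares of 10, both lymphoma counts lie below the shares over all kept genes. With 10 normalized counts added the number was 1 in lymphomas against control, beside 25.9% of the kept genes. It was 1 in the libraries labelled Id3-/-, beside 4.54%, and 0 in TFH cells, beside 14.8%. Equal totals shifted the lymphoma averages by -0.20 on the log2 scale. The number was then 1 in lymphomas against control, beside 36.2% of the kept genes, and 2 in lymphomas against Id2-/-Id3-/- CD4SP cells, beside 25.8%. With no filter on low values it was 2 in the latter, beside 24.4% of all rows, and 3 in lymphomas against control, beside 25.2%, since Eda2r entered. Low averages, those of Eda2r above all, limit what can be read from a ratio, and without depths this limit has no number.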
